A study of Mus musculus with 34 samples.

Results

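The 7 genes Pcp4l1, Cdk15, Cadm1, Slc6a7, Fbln7, Map2 and Kcne3 were followed through the stromal vascular fraction (SVF) of mouse visceral fat. They were chosen by name, because they were higher on a high fat diet (HFD) after 20 or 34 weeks, so the HFD against CHOW values at those times and the values of 20 against 8 weeks describe the choice and are given with no test for the members. All 7 were among the 32098 genes listed in each of the 2 expression tables, and all 7 passed the filter on low values in both, among 16808 genes tested in the table of 8 and 20 weeks and 13982 in the table of 34 weeks. In the first table Cdk15 reached 1 TPM (a length-corrected share of each library's transcripts) in 9 of 21 libraries, Slc6a7 in 10 and Map2 in 12. Each of these passed that filter mostly through HFD libraries: 9 of the 9 libraries for Cdk15, 6 of the 10 for Slc6a7 and 10 of the 12 for Map2.

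The SVF is what sediments from collagenase-treated fat once the floating adipocytes are removed. It was taken from the perigonadal fat of male C57BL/6J mice that received HFD (D12492, 60% of kcal from fat) or a control diet (CHOW, D12450B or D12450K) from 6 weeks of age. The groups were CHOW 8 week (4 libraries, mice aged 14 weeks at the end), HFD 8 week (6), CHOW 20 week (5, aged 26 weeks), HFD 20 week (6), CHOW 34 week (7, aged 40 weeks) and HFD 34 week (6). All mice were fasted before tissue was taken, and nothing states how many animals went into a library, so p-values measure the spread between libraries. The pellet is a mixture, and in such samples fewer cells of a type and less RNA per cell cannot be told apart.

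Some libraries stood apart from their group. Summed TPM of 10 adipocyte genes was 12099, 56298 and 16847 in CHOW 34 week replicates 5, 6 and 7 and between 133 and 1800 in every other library. Summed TPM of 10 germ cell genes reached 12923 in HFD 20 week replicate 5, with 5241.8 and 5645 in HFD 34 week replicates 1 and 2, 3073 in HFD 20 week replicate 4 and 2424 in HFD 20 week replicate 3. Of the HFD 8 week libraries, replicate 3 held 124393 TPM of 8 seminal vesicle genes (16.4 TPM or less in every other library) and replicate 6 held 267896 TPM of 6 erythroid genes (7100 to 130029 TPM elsewhere), which leaves less of the fixed total for all other genes. All 15 macrophage markers averaged 1 TPM or more in each of the 6 groups, and so did between 10 and 13 of the 13 mast cell markers. The 15 markers of lipid-associated macrophages (Trem2, Gpnmb, Spp1, Lpl, Cd36, Fabp5, Plin2 and others) summed to between 13677 and 22093 TPM at 20 weeks on HFD and between 4500 and 9528 TPM at 20 weeks on CHOW. Mast cell marker sums were 692 to 3095 TPM against 579 to 853 TPM, and adipocyte sums were 133 to 251 TPM against 384 to 918 TPM in the same groups. The part of any of these cell types in the diet differences of the 7 genes was not tested, beyond the fits that carry a marker score as a covariate.

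The 7 genes make proteins with separate roles. Pcp4l1 encodes a small protein related to PEP-19, a family that binds calmodulin through an IQ motif. Cdk15 encodes a kinase of the PFTAIRE group of cyclin-dependent kinases. Cadm1 is an immunoglobulin-superfamily adhesion molecule that joins cells to each other, known from epithelia, synapses and mast cells. Slc6a7 is a sodium-coupled transporter of the amino acid proline, known from brain, and Kcne3 is a small subunit that alters the gating of voltage-gated potassium channels such as Kcnq1. Fbln7 is fibulin-7, a secreted glycoprotein of the extracellular matrix, and Map2 binds microtubules and is best known from dendrites of neurons. Macrophages gather around adipocytes in obese visceral fat, and those that take up lipid switch on genes such as Trem2 and Gpnmb.

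RefSeq windows of 250 bases before to 50 after the start (GRCm38.p6) were at hand for 5 of the genes, in 6 windows, and not for Cadm1 or Slc6a7. The upstream 250 bases of 3 windows are shown, those of Cdk15 and Kcne3 because they share the AP-1 letters and that of Map2 because it is the richest in GC. Capitals mark matches, read on both strands, to the AP-1 site TGANTCA, to TCANGTG (a form of E-box read by the MITF and TFE factors), or to the GC box GGGCGG.
Cdk15, chr1:59256656-59256905, plus strand: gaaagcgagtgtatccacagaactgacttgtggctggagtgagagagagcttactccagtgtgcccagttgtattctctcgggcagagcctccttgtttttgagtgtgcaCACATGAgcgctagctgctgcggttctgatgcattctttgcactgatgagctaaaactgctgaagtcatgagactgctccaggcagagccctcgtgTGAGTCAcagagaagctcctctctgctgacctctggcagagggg
Kcne3, first start, chr7:100176420-100176669, plus strand: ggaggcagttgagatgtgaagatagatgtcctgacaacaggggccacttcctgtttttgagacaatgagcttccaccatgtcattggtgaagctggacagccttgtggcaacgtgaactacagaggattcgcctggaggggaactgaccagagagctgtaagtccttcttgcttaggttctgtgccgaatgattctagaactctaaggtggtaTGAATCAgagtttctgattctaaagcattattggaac
Map2, chr1:66175079-66175328, plus strand: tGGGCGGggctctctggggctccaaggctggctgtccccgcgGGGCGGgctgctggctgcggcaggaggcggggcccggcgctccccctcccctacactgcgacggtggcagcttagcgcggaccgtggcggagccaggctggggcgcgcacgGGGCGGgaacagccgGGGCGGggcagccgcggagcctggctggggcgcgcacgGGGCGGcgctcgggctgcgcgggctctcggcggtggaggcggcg

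The AP-1 letters lay 44 bases before the RefSeq start of Cdk15 and 37 bases before the first RefSeq start of Kcne3. Of all 32851 windows of that length, 7.81% held them. By gencode M21, Kcne3 starts at chr7:100176502 and Map2 at chr1:66175273, both inside the bases shown. The Kcne3 AP-1 letters and the Map2 GC box nearest the RefSeq start therefore lie within the gencode genes. The E-box letters lay 140 bases before the Cdk15 start on the opposite strand, and 14.3% of windows held them. Map2 had 5 GC boxes upstream of its RefSeq start, at 81.2% GC against a median of 52.4% over all windows, and 35.7% of windows held at least 1. TATAAA was found at the Pcp4l1 start (13.6% of windows). The PU.1 letters GAGGAAG were in none of the 6 windows and in 13.6% of all windows. None of the motifs overlapped another, and these matches describe letters only.

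The genes lie apart in the genome (GRCm38): Cdk15 at chr1:59256906-59352993 and Map2 at chr1:66175273-66442583 on the plus strand, Pcp4l1 at chr1:171173262-171196268 on the minus strand, Fbln7 at chr2:128862981-128897034, Kcne3 at chr7:100176502-100184869 and Cadm1 at chr9:47530173-47857637 on the plus strand, and Slc6a7 at chr18:60995380-61014222 on the minus strand. All are protein coding. Cdk15 and Map2 are separated by 6.82 Mb, and no 2 of the genes overlap. The antisense gene Gm34821 overlaps Kcne3 and was listed at group means of 0.137 to 0.482 TPM, and Gm10558 overlaps Map2 on the opposite strand and was listed at 0 in all groups.

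Values per library are given first, ordered by where the protein acts. Pcp4l1 was at 2.88, 1.56, 1.10 and 1.90 TPM in the 4 CHOW 8 week libraries and at 0.441, 1.11, 1.23, 1.26 and 1.12 TPM in the 5 CHOW 20 week libraries. In HFD libraries the lowest, median and highest values were 1.34, 1.89 and 4.30 TPM at 8 weeks and 10.8, 14.4 and 18.6 TPM at 20 weeks. At 34 weeks they were 0.567, 3.08 and 15.1 TPM on CHOW and 9.79, 14.97 and 27.9 TPM on HFD. Diets overlapped at 8 and at 34 weeks and were apart at 20 weeks, where the HFD mean of 14.8 ± 2.95 TPM (SD, n = 6) was 14.4 times the CHOW mean of 1.03 ± 0.337 TPM (n = 5). That was the highest ratio of means among the 7 genes. The overlap at 34 weeks came from CHOW replicates 2 and 4, at 10.2 and 15.1 TPM.

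Cdk15 was low on CHOW, at 0.444, 0.232, 0.797 and 0.372 TPM at 8 weeks and 0.507, 0.602, 0.378, 0.523 and 0.167 TPM at 20 weeks. On HFD its lowest, median and highest values were 0.672, 1.14 and 2.17 TPM at 8 weeks and 3.27, 4.35 and 7.08 TPM at 20 weeks. They were 0.339, 1.40 and 3.16 TPM on CHOW and 3.73, 5.51 and 8.59 TPM on HFD at 34 weeks. All HFD libraries lay above all CHOW libraries at 20 and at 34 weeks, and at 8 weeks 4 of the 6 did. In the order of group means (CHOW 20 week, CHOW 8 week, HFD 8 week, CHOW 34 week, HFD 20 week, HFD 34 week) the only neighbours with no shared range were CHOW 34 week and HFD 20 week, which come from tables made apart.

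Cadm1 was the most abundant of the 7. It stood at 5.69, 4.81, 4.74 and 6.06 TPM in CHOW 8 week libraries and at 4.01, 13.8, 7.52, 3.97 and 5.24 TPM in CHOW 20 week libraries, where replicate 2 was also the one with the highest lipid-associated macrophage sum of its group (9528 TPM). On HFD the lowest, median and highest values were 4.82, 7.51 and 22.6 TPM at 8 weeks, 41.3, 51.6 and 83.0 TPM at 20 weeks and 54.5, 60.9 and 85.9 TPM at 34 weeks. The CHOW 34 week libraries ran from 3.46 over a median of 7.94 to 46.9 TPM. Diets were apart at 20 and 34 weeks, although CHOW 34 week replicate 4 (46.9 TPM) exceeded the lowest HFD 20 week library (41.3 TPM).

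Slc6a7 was the member that did not point upwards at 8 weeks, with 0.455, 0.554, 1.05 and 0.918 TPM on CHOW and 0.297, 0.513 and 0.786 TPM (lowest, median, highest) on HFD. At 20 weeks CHOW libraries held 1.66, 1.12, 1.10, 0.798 and 0.995 TPM and HFD libraries 3.84, 5.35 and 5.57 TPM, with no overlap. At 34 weeks the values were 0.451, 1.80 and 3.65 TPM on CHOW and 1.69, 4.01 and 5.20 TPM on HFD. Unlike the order for Pcp4l1, Cdk15, Cadm1 and Kcne3, its group means peaked at 20 weeks on HFD (5.03 ± 0.678 TPM, n = 6) and not at 34 weeks (3.64 ± 1.25 TPM, n = 6), and those neighbours overlapped.

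Kcne3 was at 1.73, 2.65, 1.79 and 4.97 TPM in CHOW 8 week libraries and at 1.64, 1.47, 1.46, 1.87 and 1.61 TPM in CHOW 20 week libraries, the tightest group of any gene here (SD 0.164 TPM). HFD libraries ran from 1.27 over a median of 3.48 to 4.58 TPM at 8 weeks and from 3.37 over 8.13 to 27.3 TPM at 20 weeks. At 34 weeks they ran from 1.18 over 1.69 to 8.84 TPM on CHOW and from 11.3 over 13.2 to 20.1 TPM on HFD. No HFD library exceeded the highest CHOW library at 8 weeks, and all did at 20 and 34 weeks. The 2 highest HFD 20 week libraries, replicates 5 (27.3 TPM) and 4 (15.9 TPM), were also the 2 with the highest germ cell sums of that group.

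Fbln7 was at 1.70, 1.69, 1.60 and 3.20 TPM in CHOW 8 week libraries and at 2.16, 3.99, 2.54, 2.41 and 1.85 TPM in CHOW 20 week libraries. HFD libraries ran from 2.46 over a median of 4.53 to 8.69 TPM at 8 weeks and from 19.3 over 27.5 to 29.6 TPM at 20 weeks. The 34 week values ran from 0.871 over 5.12 to 39.4 TPM on CHOW and from 16.3 over 19.9 to 30.9 TPM on HFD. CHOW 34 week replicate 4 was the highest library of all for Fbln7, above each HFD library. The other 6 CHOW 34 week libraries stayed at 13.3 TPM or less and below each HFD 34 week library.

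Map2 was at 0.785, 0.480, 0.749 and 0.428 TPM in CHOW 8 week libraries and at 1.04, 0.726, 1.54, 0.741 and 0.742 TPM in CHOW 20 week libraries. HFD libraries ran from 0.607 over a median of 1.47 to 2.61 TPM at 8 weeks and from 0.738 over 3.41 to 15.4 TPM at 20 weeks. At 34 weeks CHOW libraries held 0.193, 0.398 and 1.15 TPM (lowest, median, highest) and HFD libraries 1.96, 3.01 and 4.30 TPM. Map2 was the one gene whose diets overlapped at 20 weeks, through HFD replicate 1 (0.738 TPM), and its HFD 20 week SD of 5.35 TPM was 94.8% of the mean. Replicates 5 (15.4 TPM) and 4 (8.01 TPM) were the highest, as for Kcne3. With the germ cell score as a covariate, an alternative added after the data were seen, the Map2 difference at 20 weeks was 0.89 against 1.42 on the log2(TPM + 1) scale.

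**Figure D1:**
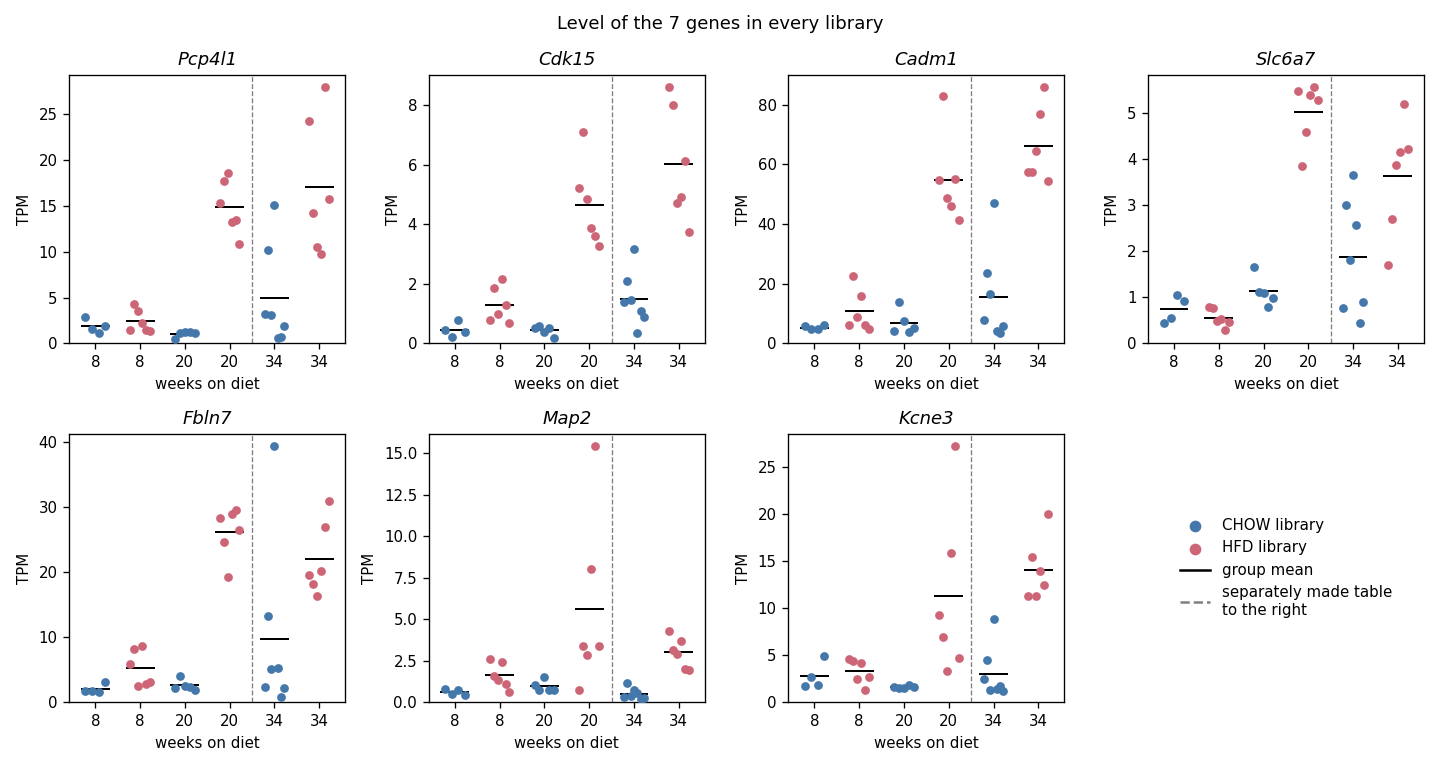
TPM (vertical axis, from 0) of each of the 7 genes in every library, by weeks on the diet (horizontal axis), with blue points for CHOW, red points for HFD and a bar at each group mean. Except for Map2, the HFD 20 week points lie above all CHOW 20 week points, and 2 CHOW 34 week libraries (replicates 2 and 4) reach into or near the HFD range for several genes.

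The contrast that did not choose the genes was HFD against CHOW at 8 weeks, which asks whether they had already moved early in the diet. None of the 6 genes tested there passed the threshold (limma on log2(TPM + 1), adjusted over all genes tested), where 0.0238% of all genes did. Pcp4l1 was left out of this test because its diet by time difference was already known, and its 8 week difference was 0.21 (SE 0.24). Fbln7 had a difference of 0.93 (SE 0.27, limma adjusted p 0.22, unadjusted p 0.00234) and Cdk15 one of 0.63 (SE 0.22, limma adjusted p 0.331, unadjusted p 0.00927). These were the 2 genes with an unadjusted p under 0.05, against 9.7% of all genes tested. Cadm1 differed by 0.71 (SE 0.34, limma adjusted p 0.52), Map2 by 0.65 (SE 0.41, limma adjusted p 0.639), Kcne3 by 0.18 (SE 0.39, limma adjusted p 0.952) and Slc6a7 by -0.16 (SE 0.17, limma adjusted p 0.832). Without HFD 8 week replicate 3 the Fbln7 difference was 1.07 (limma adjusted p 0.117) and without replicate 6 it was 1.02 (limma adjusted p 0.228), and 0 of the genes passed by limma in either case. With sample quality weights Fbln7 alone passed, at a difference of 1.14 and a limma adjusted p of 0.0245. The HFD 20 week libraries alone carried Cdk15 (6 libraries at 1 TPM or more) and Map2 (5) past the filter of 4, and with no filter their 8 week limma adjusted p was 0.421 and 0.79. The median 8 week difference over all genes was -0.08, and the 7 genes as a set were not tested.

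The contrasts that chose the genes are given as values only, and where a number of genes past the threshold is printed for them it is set by that choice and nothing is read from it. At 20 weeks the log2(TPM + 1) difference, HFD minus CHOW, was 2.96 (SE 0.23) for Pcp4l1, 2.94 (SE 0.25) for Fbln7, 2.91 (SE 0.32) for Cadm1, 1.95 (SE 0.20) for Cdk15, 1.93 (SE 0.37) for Kcne3, 1.5 (SE 0.16) for Slc6a7 and 1.42 (SE 0.38) for Map2. The threshold was passed by 7 of these, a number fixed by the choice (14.3% of all genes passed). At 34 weeks the differences were 2.51 (SE 0.47) for Cadm1, 2.09 (SE 0.32) for Kcne3, 2.00 (SE 0.51) for Pcp4l1, 1.81 (SE 0.56) for Fbln7, 1.53 (SE 0.25) for Cdk15, 1.40 (SE 0.20) for Map2 and 0.76 (SE 0.30) for Slc6a7. The number past the threshold, likewise no test of the 7, was 4 (0.243% of all genes passed). It was 0 without CHOW 34 week replicate 7 or without HFD 34 week replicate 2, 3 or 4. It was 1 if CHOW replicate 1, CHOW replicate 5, HFD replicate 5 or HFD replicate 6 was left out, and 2 if CHOW replicate 3 was. Without CHOW 34 week replicates 5, 6 and 7, which held the adipocyte RNA, the differences at 34 weeks were 1.68 for Cadm1, 1.18 for Pcp4l1 and 1.11 for Fbln7, with 0 genes past the threshold. Adding the adipocyte score to the fit gave 1.35, 0.74 and 0.57.

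On HFD, 20 weeks exceeded 8 weeks by 2.40 (SE 0.31) for Cadm1, 2.28 (SE 0.22) for Pcp4l1, 2.25 (SE 0.24) for Fbln7, 1.95 (SE 0.15) for Slc6a7, 1.30 (SE 0.195) for Cdk15, 1.29 (SE 0.35) for Kcne3 and 1.04 (SE 0.36) for Map2. The number past the threshold was 6 (8.78% of all genes passed), again set by the choice. On CHOW the same interval gave values from -0.48 (Pcp4l1) to 0.29 (Slc6a7), with 0 past the threshold by limma (0.613% of all genes) and 0 at an unadjusted p under 0.05 (12.5% of all genes). The diet by time difference ran from 0.77 (SE 0.56) for Map2 to 2.75 (SE 0.33) for Pcp4l1, and it contains the 20 week difference that chose the genes. The number past the threshold was 4 (0.297% of all genes passed), and it was 2 without CHOW 8 week replicate 4 and 2 with the macrophage score as a covariate. These values are no test of the 7 genes.

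**Figure D2:**
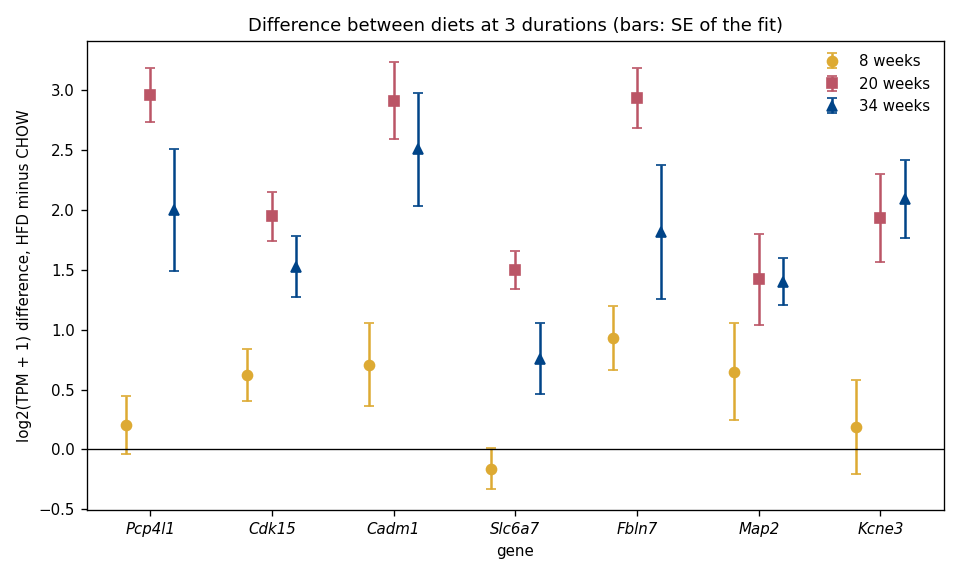
Difference in log2(TPM + 1), HFD minus CHOW (vertical axis), for each gene (horizontal axis) at 8 weeks (circles), 20 weeks (squares) and 34 weeks (triangles), with bars of 1 SE of the fit. The 8 week values lie between -0.16 and 0.93, and the 20 week values between 1.42 and 2.96.

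Co-variation with macrophage and mast cell genes was measured between libraries of the same diet and time. A marker score is the mean log2(TPM + 1) of the listed genes, group means were taken out of both sides, and the slope was tested by limma with adjustment over all genes. The 84 relations computed cover the 7 genes, 6 scores and 2 tables, and the limma slope tests named below are on 3 of those scores. Permutation p values are also given for the germ cell score, and none of them is adjusted for the number of relations. In the table of 8 and 20 weeks the macrophage slope was called for 1 of the 7 genes, Cdk15, where 22.1% of all genes were called. The slope of Cdk15 was 0.51 (SE 0.17, limma adjusted p 0.0336), with Pearson r = 0.68 (permutation p 0.00101) and Spearman rho = 0.67 (permutation p 0.00156) over 21 libraries, and r = 0.66 without the 2 libraries farthest from the median score. Its call was lost when any of 6 libraries was left out (CHOW 8 week replicate 3, HFD 8 week replicates 2, 4 and 6, CHOW 20 week replicate 5 or HFD 20 week replicate 6), with limma adjusted p values of 0.0525 to 0.0783. Within single groups r was 0.67 in HFD 8 week and 0.82 in HFD 20 week libraries.

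The lipid-associated macrophage score tracked 2 of the 7 genes in the same table, Cadm1 and Fbln7, against 11.9% of all genes called. Cadm1 had a slope of 0.75 (SE 0.15, limma adjusted p 0.00369), Pearson r = 0.78 (permutation p 0.00386), Spearman rho = 0.56 (permutation p 0.0296) and r = 0.57 without the 2 libraries farthest out. It stayed called whichever library was left out (limma adjusted p at most 0.0252), and r was 0.84 within HFD 8 week and 0.83 within HFD 20 week libraries. With replicate number added to the fit, the Cadm1 slope was 0.61 and was not called (limma adjusted p 0.199). Fbln7 had a slope of 0.51 (SE 0.13, limma adjusted p 0.0153), Pearson r = 0.71 (permutation p 0.00217), Spearman rho = 0.63 (permutation p 0.0133) and r = 0.63 without those 2 libraries. For Fbln7 the groups disagreed: r was 0.96 within HFD 8 week libraries and -0.19 within HFD 20 week libraries, and the call was lost without HFD 8 week replicate 2 (limma adjusted p 0.0633).

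Mast cell genes gave 0 called slopes of 7 by limma in that table, with 0.0654% of all genes called. The values were negative for Map2 (slope -1.04, SE 0.27, limma adjusted p 0.109, r = -0.69, permutation p 0.0231, rho = -0.82, r = -0.58 without 2 libraries) and Kcne3 (slope -0.82, SE 0.29, limma adjusted p 0.164, r = -0.56). An r of -0.5 or less with that score was held by 9.65% of all genes tested. Cadm1 is known from mast cells, and its r with the mast cell score was 0.04 here and 0.69 at 34 weeks. HFD 20 week replicates 4 and 5, the 2 highest in Map2 and Kcne3, had the 2 lowest mast cell sums of their group (692 and 1155 TPM), beside their high germ cell sums.

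At 34 weeks 2 genes had a called slope on the mast cell score. Slc6a7 tracked it with a slope of 0.62 (SE 0.10, limma adjusted p 0.00737), Pearson r = 0.92, Spearman rho = 0.90 (permutation p 8e-05) and r = 0.90 without the 2 libraries farthest out, over 13 libraries. The relation held within both diets, with r = 0.94 in CHOW and 0.91 in HFD libraries, and was below the threshold without CHOW 34 week replicate 4 (slope 0.68, limma adjusted p 0.0617). With the germ cell score, r of Slc6a7 was -0.92 within HFD and -0.06 within CHOW libraries of 34 weeks. The part of each score was not tested. With the mast cell score r was -0.27 at 8 and 20 weeks and -0.98 within HFD 8 week libraries, and the difference between the tables was not tested. Fbln7 tracked the same score with a slope of 1.11 (SE 0.22, limma adjusted p 0.015), Pearson r = 0.82 (permutation p 9e-05), Spearman rho = 0.85 and r = 0.90 without 2 libraries, within CHOW r = 0.99 and within HFD r = 0.51. Without CHOW 34 week replicate 4 its slope was 0.76 (limma adjusted p 0.105). These were 2 of 7 genes, with 7.29% of all genes called. Kcne3 (slope 0.54, SE 0.16, limma adjusted p 0.0543, r = 0.72, permutation p 0.00761) and Cadm1 (slope 0.79, SE 0.23, limma adjusted p 0.0578, r = 0.69, permutation p 0.0107) did not pass, with positive values where that of Kcne3 had been negative at 8 and 20 weeks. Slc6a7 and Fbln7 also followed the score of adipose progenitors and fibroblasts at 34 weeks, with r = 0.81 for Slc6a7 (rho = 0.86, 0.65 without 2 libraries) and r = 0.85 for Fbln7 (rho = 0.85, 0.61 without 2 libraries). Of all genes tested there, 30.1% had an r of 0.5 or more with that score. At 8 and 20 weeks r was 0.21 for Slc6a7 and 0.34 for Fbln7 (0.15 and 0.07 without 2 libraries). CHOW 34 week replicate 4 was highest in its group in mast cell sum (1196 TPM) and progenitor sum (12207 TPM).

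Macrophage slopes at 34 weeks were called for Pcp4l1 (1.24, SE 0.44, limma adjusted p 0.0446) and Cadm1 (1.34, SE 0.36, limma adjusted p 0.0128), where 33.3% of all genes were called. With the lipid-associated score the same 2 were called, at 0.96 (SE 0.30, limma adjusted p 0.0322) for Pcp4l1 and 0.91 (SE 0.28, limma adjusted p 0.0277) for Cadm1, against 25.6% of all genes. Pearson r with the macrophage score was 0.62 for Pcp4l1 (permutation p 0.0664) and 0.72 for Cadm1 (permutation p 0.0287). With the lipid-associated score it was 0.67 (permutation p 0.0547) and 0.68 (permutation p 0.0637). Within CHOW libraries r ran from 0.69 to 0.73. Within HFD libraries r was -0.17 for Pcp4l1 and 0.58 for Cadm1 on the macrophage score, and 0.53 and -0.09 on the lipid-associated one. CHOW 34 week replicate 6, the library with the most adipocyte RNA, had the lowest macrophage sum (6167 TPM), and without it the slopes were 2.11 (limma adjusted p 0.397) and 2.42 (limma adjusted p 0.187) on the macrophage score and 1.47 (limma adjusted p 0.327) and 1.24 (limma adjusted p 0.373) on the lipid-associated one. The Pcp4l1 macrophage call was also lost without CHOW 34 week replicate 2, 4 or 5 or HFD 34 week replicate 2, 3 or 5, and both lipid-associated calls without CHOW 34 week replicate 2 or 5. Adding the adipocyte score to the fit gave a macrophage slope of -0.60 for Pcp4l1 and 0.05 for Cadm1. Within the 7 CHOW 34 week libraries the adipocyte score had r = -0.93 with Pcp4l1, -0.91 with Cadm1 and -0.83 with Fbln7, while within the 6 HFD libraries r was -0.70, -0.03 and -0.10. For Cdk15 it was -0.79 within CHOW and -0.84 within HFD libraries, and for Slc6a7 -0.70 and 0.48. The r pooled over that table stands for the adipocyte score only in the plot of correlations and is not used, since 3 libraries lie far from the rest.

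**Figure D3:**
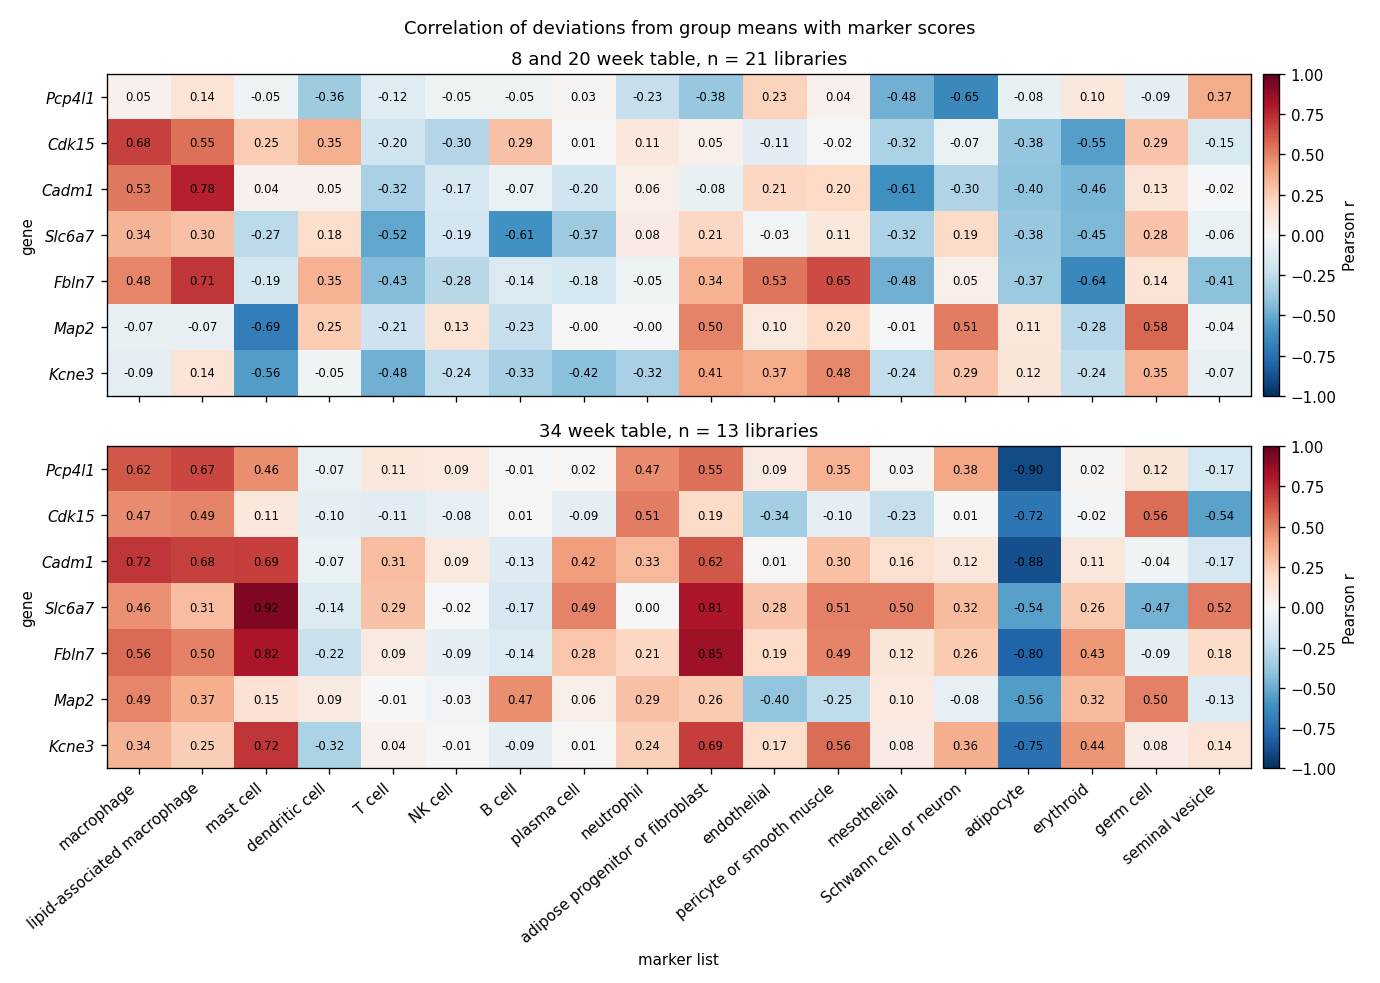
Pearson r (number and colour) between each gene (rows) and the score of 18 marker lists (columns), both as deviations from group means, for 21 libraries of 8 and 20 weeks (top) and 13 libraries of 34 weeks (bottom). Cadm1 and Fbln7 stand at 0.78 and 0.71 with lipid-associated macrophage genes in the top panel, and Slc6a7 and Fbln7 at 0.92 and 0.82 with mast cell genes in the bottom panel. In the bottom panel 3 CHOW libraries lie far from the rest in the adipocyte score.

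Map2 had r = 0.58 with the germ cell score in the table of 8 and 20 weeks (unadjusted permutation p 0.0398, rho = 0.45, permutation p 0.089). Without the 2 libraries farthest out r was 0.45, and within HFD 20 week libraries it was 0.76. Of all genes tested in that table, 10.6% had an r of 0.5 or more with the germ cell score. For Kcne3 r over that table was 0.35 with a permutation p of 0.264. The part of germ cell RNA in the level of Map2 was not tested beyond the covariate fit.

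**Figure D4:**
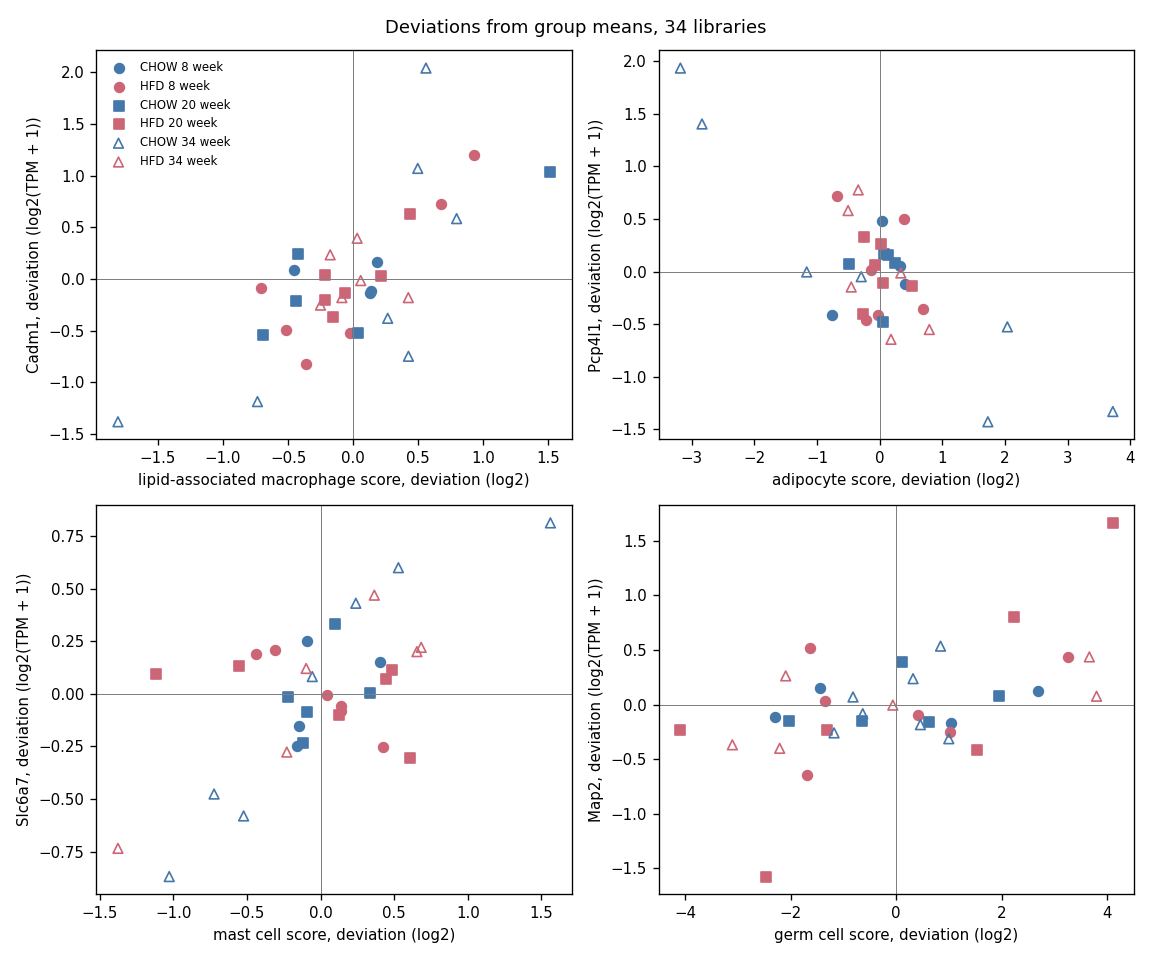
Deviation of a gene from its group mean in log2(TPM + 1) (vertical axes) against the deviation of a marker score in log2 units (horizontal axes), for Cadm1 (lipid-associated macrophage), Pcp4l1 (adipocyte), Slc6a7 (mast cell) and Map2 (germ cell), with circles, squares and open triangles for 8, 20 and 34 weeks, blue for CHOW and red for HFD. The Slc6a7 triangles (34 weeks) rise with the mast cell score and the circles and squares do not, and the 3 CHOW triangles at the right of the adipocyte panel are replicates 5, 6 and 7.

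The 7 genes varied together only in part. Between pairs of members, r of the deviations had a median of 0.23 in the 21 libraries of 8 and 20 weeks (from -0.34 for Pcp4l1 with Slc6a7 to 0.66 for Cadm1 with Fbln7, 15 of 21 pairs positive). At 34 weeks the median was 0.58 (from 0.07 for Cdk15 with Slc6a7 to 0.88 for Pcp4l1 with Cadm1, 21 of 21 positive), in a table where 3 libraries hold adipocyte RNA. Pcp4l1 with Cadm1 (0.63) and Cdk15 with Cadm1 (0.65) were high in the first table as well. No values of other gene pairs are given beside these, so nothing is read from the counts of positive pairs.

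The genes most like each member were found as those with the highest of the lower r of both tables, among 11310 genes. For Cadm1 they were Htr2b (a serotonin receptor, r = 0.91 and 0.90), Myh15 (a myosin heavy chain, 0.89 and 0.87) and Myo1e (an unconventional myosin, 0.81 and 0.94). Those for Fbln7 were genes of matrix and its turnover, Lum (lumican, 0.89 and 0.90), Cpxm1 (0.82 and 0.86) and Ctsk (cathepsin K, 0.86 and 0.81), and Lum is itself a marker in the progenitor list. Cdk15 went with Slc39a11 (a zinc transporter, 0.76 and 0.82), Ap1s1 (0.73 and 0.71) and Plxdc1 (0.69 and 0.70). Kcne3 went with the transcription factor gene Sox4 (0.73 and 0.78), Dact3 (0.71 and 0.86) and Ppp1r13l (0.70 and 0.70), and Map2 with Strbp (0.84 and 0.77), Ccsap (0.74 and 0.77) and Rnf139 (0.75 and 0.73). Likeness was weaker for Pcp4l1 (Cadm1, 0.63 and 0.88; Pld1, 0.63 and 0.65; Abcb4, 0.61 and 0.75) and for Slc6a7 (Ppp4r3b, 0.58 and 0.58; E2f3, 0.57 and 0.66; Slc25a46, 0.56 and 0.62). The number of genes with a lower r of 0.5 or more ran from 12 for Pcp4l1 and 14 for Slc6a7 to 375 for Cadm1 and 1299 for Fbln7.

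Relatives and partners of the 7 genes were tested in the same fits, 89 other genes in 8 lists, of which 64 passed the filter at 8 and 20 weeks and 60 at 34 weeks. At 20 weeks 8 rose and 4 fell on HFD (limma adjusted p under the threshold), and the other 52 did not pass. The 12 are 18.8% of the 64, near the 14.3% of all genes. By limma 0 passed at 8 weeks, at 34 weeks and in the diet by time difference, where 5, 11 and 8 genes had an unadjusted p under 0.05 (9.7%, 13.2% and 13.8% of all genes). The 5 at 8 weeks were Hmcn2 (1.43, unadjusted p 0.000875), Cdk18 (1.45, unadjusted p 0.00262), Oat, Slc6a13 and Efemp2, named after their values were seen.

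The largest rise was that of Cdk18, a PCTAIRE kinase related to Cdk15, from 7.11 ± 5.21 TPM (SD, n = 5) on CHOW to 65.3 ± 11.2 TPM (n = 6) on HFD, a difference of 3.20 (SE 0.40, limma adjusted p 4.36e-05), with no overlap. Of the 7 other kinases and cyclins of that list, 1 rose and 6 did not pass. Among potassium channels that can pair with Kcne3 or are known from macrophages, Kcnn4 (a calcium-activated channel) rose by 2.10 (SE 0.34, limma adjusted p 0.000531) from 29.8 to 120 TPM and Kcnj2 (an inward rectifier) by 1.19 (SE 0.32, limma adjusted p 0.0179), 2 of 7 tested. Slc6a8, the creatine transporter, rose by 1.09 (SE 0.17, limma adjusted p 0.000432) from 55.9 to 119 TPM, and Slc6a13, which carries GABA and taurine, fell by 1.00 (SE 0.23, limma adjusted p 0.00664), among 8 tested transporters of the SLC6 family.

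Of 9 tested enzymes of proline synthesis and breakdown, set beside the proline transporter Slc6a7, Oat (ornithine aminotransferase) fell by 0.53 (SE 0.12, limma adjusted p 0.00571) and 8 did not pass. Among adhesion relatives of Cadm1, 11 tested, Cadm3 fell by 1.24 (SE 0.19, limma adjusted p 0.000334) from 45.6 to 18.5 TPM, opposite in direction to Cadm1, and Nectin4 rose by 0.62 (SE 0.18, limma adjusted p 0.0293). The fibulin relatives split too: Efemp1 (fibulin-3) fell by 1.26 (SE 0.22, limma adjusted p 0.00104) from 542.5 to 225 TPM, Hmcn2 (hemicentin-2) rose by 1.27 (SE 0.34, limma adjusted p 0.0193), and 5 of 7 did not pass. Stmn1 (stathmin, which destabilises microtubules) rose by 1.12 (SE 0.27, limma adjusted p 0.00866), 1 of 10 tested beside Map2, and Calm3 (a calmodulin gene) rose by 0.53 (SE 0.17, limma adjusted p 0.0412), 1 of 5.

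Adipocyte marker sums did not overlap between the diets at 20 weeks (133 to 251 TPM on HFD, 384 to 918 TPM on CHOW). Diet and the adipocyte score therefore cannot be told apart well in a fit that holds both. With that score as a covariate none of the 12 stayed past the threshold, with differences of 1.88 for Cdk18 (limma adjusted p 0.133) and 1.06 for Kcnn4 (limma adjusted p 0.316). The macrophage score as a covariate ended the calls of Calm3, Nectin4, Slc6a13, Hmcn2, Stmn1 and Kcnj2 (limma adjusted p 0.102 to 0.44). The germ cell score, added after the data were seen, ended those of Calm3, Nectin4, Hmcn2, Stmn1 and Kcnj2 (limma adjusted p 0.0547 to 0.337). Leaving out single libraries ended the calls of Calm3 (CHOW 20 week replicate 3, 4 or 5, HFD 20 week replicate 2, 4 or 5), Nectin4 (CHOW replicate 1, 3 or 4, HFD replicate 3, 4 or 5), Hmcn2 (CHOW replicate 5) and Kcnj2 (CHOW replicate 3 or 5), at limma adjusted p values of at most 0.112.

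**Figure D5:**
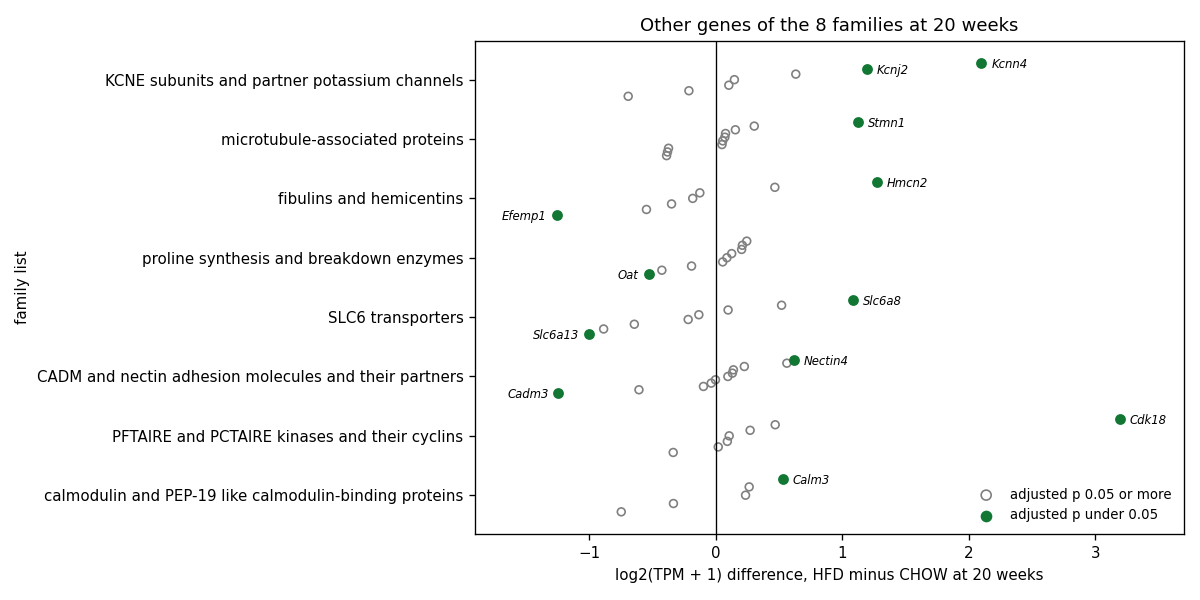
Difference in log2(TPM + 1), HFD minus CHOW at 20 weeks (horizontal axis), of the other genes of 8 family lists (rows), with filled points for a limma adjusted p under 0.05. Of 64 genes, 8 filled points lie to the right of 0, led by Cdk18 at 3.20 and Kcnn4 at 2.10, and 4 to the left, down to Efemp1 at -1.26.

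From 8 to 20 weeks on HFD, 6 of the 64 (9.38%, near the 8.78% of all genes) rose and 0 fell by limma: Cdk18 by 1.92 (SE 0.38, limma adjusted p 0.00285), Kcnn4 by 1.86 (SE 0.33, limma adjusted p 0.00114), Kcnj2 by 1.07 (SE 0.30, limma adjusted p 0.0327), Slc6a8 by 1.02 (SE 0.17, limma adjusted p 0.000519), and Pvr and Fbln1, named here after their values were seen, by 0.85 and 0.76 (limma adjusted p 0.0152 and 0.0439). On CHOW 0 of 64 passed by limma over that interval, with 9 at an unadjusted p under 0.05.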

How the data were processed

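RNA-seq libraries of the SVF were made with a stranded poly(A) kit. Per the labels, the authors ran FastQC, MultiQC and Trimmomatic on the reads, quantified transcripts with Salmon (gencode M10, mm10) and deposited TPM per gene in 2 tables, 8 with 20 weeks (21 libraries) and 34 weeks (13 libraries). Tool versions were not stated in the labels or methods. The authors' own DESeq2 test on counts was not used here. TPM keeps no read depth, so depth is unknown and no counting interval is given. Because TPM values of a library have a fixed total, a rise of abundant genes lowers the rest.

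Gene IDs were matched to gencode M21 symbols (31791 of 32098, of which 24748 had the same version). TPM was transformed to log2(TPM + 1), which shrinks fold changes of weakly expressed genes. The filter kept genes reaching 1 TPM in no fewer than 4 libraries (8 and 20 weeks) or 6 libraries (34 weeks), and these were tested with limma 3.58.1 in R 4.3.3 (1 mean per group, eBayes with trend, two-sided, Benjamini-Hochberg over all genes tested, threshold 0.05), each table alone, so levels set across tables carry no test. Score slopes used the same fit with the score as a covariate. Permutation p values came from 100000 permutations within groups, two-sided. Code was tested on simulated data. Alternatives were another pseudocount, filters, scaling, weights, covariates, blocks and libraries left out.

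The members and lists were chosen with earlier results of these data known. Named genes are the 7 members, family genes past the threshold in HFD against CHOW at 8, 20 or 34 weeks, and for each member the 3 genes most like it (mean of at least 5 TPM in some group, proper symbol). Groups and replicate numbers came from the sample titles.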

Additional observations from a re-analysis of the deposited data

Results flagged for a closer look

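Of 42 sets of libraries (7 genes in 6 groups), 4 held a library far from the rest by Dixon's criterion, which chance alone gives in about 5% of sets. Pcp4l1 in CHOW 20 week replicate 1 was low, at 0.441 TPM with the nearest library at 1.11 TPM. Cadm1 in HFD 20 week replicate 2 was high, at 83.0 TPM with the nearest at 55.1 TPM, and that library also had the highest lipid-associated macrophage sum of its group (22093 TPM). Fbln7 in CHOW 8 week replicate 4 was high, at 3.20 TPM with the nearest at 1.70 TPM. Fbln7 in CHOW 34 week replicate 4 was high, at 39.4 TPM with the nearest at 13.3 TPM, in the library with the highest mast cell sum (1196 TPM) and progenitor sum (12207 TPM) of its group. The part of these markers in the Fbln7 and Cadm1 values was not tested.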

How the results depend on the processing

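The number of the 7 genes past the threshold at 8 weeks was 0, and 1 with sample quality weights; at 20 weeks it was 7, and 4 with the adipocyte score as a covariate. At 34 weeks it was 4, and 0 with a pseudocount of 0.1 TPM, quantile normalization, the adipocyte or germ cell score (the latter added after seeing the data) as a covariate, the replicate block, or without the libraries that stand apart (CHOW 34 week replicates 5, 6 and 7), and 1 with no filter or a filter of 5 TPM. For 20 against 8 weeks on HFD it was 6, and 3 with the adipocyte score; for the diet by time difference 4, and 2 with the macrophage score. For the macrophage slope at 8 and 20 weeks it was 1, and 0 with median-ratio scaling, quantile normalization, the adipocyte score, the replicate block, or without CHOW 20 week replicate 2, HFD 8 week replicate 3 and HFD 20 week replicate 5. For the lipid-associated macrophage slope there it was 2, and 1 under the same settings except the replicate block, with 0. With sample quality weights the macrophage count there stayed at 1 through another of the 7 genes. The Cdk15 slope was then 0.51 and was not called (limma adjusted p 0.0621). At 34 weeks the macrophage slope count was 2, and 1 with no filter or quantile normalization and 0 with weights, the adipocyte score, the block or without the 3 libraries; the lipid-associated count was 2, and 1 with median-ratio scaling or the block and 0 with no filter, quantile normalization, weights, the adipocyte score or without the 3 libraries; the mast cell count was 2, and 1 with weights, the adipocyte score or without the 3 libraries and 0 with the block. Leaving out single libraries gave 0 to 0 at 8 weeks, 7 to 7 at 20 weeks, 0 to 6 at 34 weeks, 0 to 0 and 5 to 7 over time on CHOW and on HFD, and 2 to 5 for the diet by time difference. For the slopes it gave 0 to 2 (macrophage), 1 to 2 (lipid-associated) and 0 to 0 (mast cell) at 8 and 20 weeks, and 0 to 3, 0 to 2 and 0 to 4 at 34 weeks. The Pcp4l1 macrophage slope at 34 weeks turned to -0.60 with the adipocyte score. Where no cause is stated, the cause was not tested. The labels do not say whether the replicate numbers pair libraries. Between diets, same-number correlations of deviations exceeded 0.1 in 2 of 4, 1 of 5 and 3 of 6 pairs at 8, 20 and 34 weeks. Between 8 and 20 weeks they did so in 4 of 6 pairs on HFD (up to 0.40) and in 0 of 4 on CHOW. Of the HFD 20 week libraries, 5 of 6 were closest to the HFD 8 week library of their own number, a hint from the data only. With the block, Cadm1 on the lipid-associated score at 34 weeks (limma adjusted p 0.0483) stayed past the threshold, and the other 8 called slopes did not, among them Cadm1 on that score at 8 and 20 weeks (0.61, limma adjusted p 0.199). Of the values of single genes, 1558 kept direction and side of the threshold or moved less than their spread, 102 lost a call, 33 moved, 1 gained a call and 1 turned sign. Depth is unknown, so its limit on low genes such as Cdk15, Slc6a7 and Map2 cannot be given.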

Other observations

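Other marker lists moved with single members, and these correlations of deviations, chosen after their values were seen, are given with no test. In the 21 libraries of 8 and 20 weeks, Fbln7 stood at r = 0.65 with genes of pericytes and smooth muscle and at 0.53 with endothelial genes, Pcp4l1 at -0.65 with genes of Schwann cells and neurons, Cadm1 at -0.61 with mesothelial genes and Slc6a7 at -0.61 with B cell genes. At 34 weeks the same pairs stood at 0.49, 0.19, 0.38, 0.16 and -0.17, so each was smaller in size or of the other sign there. Map2, known from neurons, stood at 0.51 with genes of Schwann cells and neurons in the first table and at -0.08 at 34 weeks.

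Kcne3 had r = 0.41 with the progenitor and fibroblast score in the first table, and 0.19 without the 2 libraries farthest out. The median r over all genes tested there was 0.29. Within HFD 8 week libraries r of Kcne3 was -0.06, and within HFD 20 week libraries it was 0.78. At 34 weeks r of Kcne3 was 0.69 (0.49 without 2 libraries), with 0.69 within CHOW and 0.73 within HFD libraries. Of all genes tested at 34 weeks, 30.1% had an r of 0.5 or more with that score. Fbln7 followed that score within 3 of the 4 groups of 6 or more libraries at r of 0.85 or more (0.89 in HFD 20 week, 0.85 in CHOW 34 week and 0.90 in HFD 34 week), and at 0.35 in HFD 8 week libraries. The progenitor sums themselves overlapped between diets at 20 weeks (4625 to 8187 TPM on HFD and 6788 to 8982 TPM on CHOW) and at 34 weeks (6055 to 9172 TPM on HFD and 3255 to 12207 TPM on CHOW).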
